A study of Mus musculus with 4 samples.

Results

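The chondrogenic transcription factors and the non-collagen matrix genes of cartilage were followed in mouse bone marrow stromal cells (mBMSCs) depleted of ZBP1, a sensor of Z-form nucleic acids. The 10 genes were the SOX trio (Sox9, Sox5 and Sox6), aggrecan (Acan), its link protein (Hapln1), 3 matrilins (Matn2, Matn3 and Matn4), cartilage oligomeric matrix protein (Comp) and chondroadherin (Chad). They were found by gene symbol among the 24346 symbols of the RNA-seq table, and all 10 were present. The cells were cultured from the marrow of C57BL/6 mice (C57BL/6J in the study's methods) aged 3 months, and none of the groups carried a transgene or a deleted gene. The control group was transfected with a scrambled siRNA (siScr), the other with siRNA against ZBP1 (siZBP1), both by Lipofectamine RNAiMAX, with 2 samples each and RNA collected 72 h later. The study used a pair of siRNAs against ZBP1, and the sources used here do not say which of them gave the RNA-seq samples, or whether samples of a group came from separate mice or cultures, so p-values measure only the spread between these samples. The cells were plastic-adherent primary cells without clonal selection, and no chondrogenic induction is described for them.

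In the growth plate and in articular cartilage, SOX9 starts the chondrocyte programme and binds enhancers of collagen and proteoglycan genes, and SOX5 and SOX6, which lack a transactivation domain of their own, help it to do so. The product of that programme is a gel in which aggrecan, a chondroitin sulfate proteoglycan, hangs on hyaluronan strands and is held there by link protein. Matrilins, COMP and chondroadherin connect this gel to collagen fibrils and to cells. Marrow stromal cells can take the chondrocyte path under inducing conditions, beside the osteoblast and adipocyte paths.

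Sequence was read for the stretch from 250 bases before to 50 bases after each transcription start in RefSeq, build GRCm38.p6. A promoter was matched for 7 of the 10 genes, 13 promoters in all, 6 of them of Sox6. They were searched on both strands for words bound by 3 families of factors of skeletal cells, TCF/LEF (CTTTGAT and CTTTGAA), SOX (ACAATGG and ACAATAG) and RUNX (TGTGGTT and TGCGGTT), of which no word overlaps another in these promoters. A gene with several starts can have its promoter within the gene. The windows shown for Hapln1, Sox5 and Sox6 are at such internal starts, downstream of the outermost start that GENCODE M21 gives. The 4 promoters below are shown because 3 of them hold such words, printed in capitals, and because aggrecan, the chief cartilage proteoglycan, holds none.
Hapln1, chr13:89540386-89540685, plus strand: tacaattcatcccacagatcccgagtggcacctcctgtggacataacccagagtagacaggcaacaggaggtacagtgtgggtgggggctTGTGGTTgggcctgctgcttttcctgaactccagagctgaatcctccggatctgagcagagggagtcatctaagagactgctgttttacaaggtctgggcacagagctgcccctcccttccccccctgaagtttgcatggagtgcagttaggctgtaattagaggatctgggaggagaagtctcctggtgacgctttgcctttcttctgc
Acan, chr7:79052976-79053275, plus strand: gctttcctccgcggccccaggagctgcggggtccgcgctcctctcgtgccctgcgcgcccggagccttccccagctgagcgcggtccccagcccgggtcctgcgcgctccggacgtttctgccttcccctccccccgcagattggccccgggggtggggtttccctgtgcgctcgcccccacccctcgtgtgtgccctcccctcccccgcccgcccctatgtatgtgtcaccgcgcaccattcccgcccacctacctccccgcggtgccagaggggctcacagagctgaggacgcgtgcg
Sox5, chr6:143947057-143947356, minus strand: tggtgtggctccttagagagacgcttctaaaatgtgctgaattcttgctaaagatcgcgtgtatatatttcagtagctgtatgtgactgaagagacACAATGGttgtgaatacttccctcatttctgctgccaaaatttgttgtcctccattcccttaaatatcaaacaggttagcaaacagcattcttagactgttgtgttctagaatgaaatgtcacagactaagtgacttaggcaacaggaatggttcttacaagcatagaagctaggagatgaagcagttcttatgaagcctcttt
Sox6, chr7:115801560-115801859, minus strand: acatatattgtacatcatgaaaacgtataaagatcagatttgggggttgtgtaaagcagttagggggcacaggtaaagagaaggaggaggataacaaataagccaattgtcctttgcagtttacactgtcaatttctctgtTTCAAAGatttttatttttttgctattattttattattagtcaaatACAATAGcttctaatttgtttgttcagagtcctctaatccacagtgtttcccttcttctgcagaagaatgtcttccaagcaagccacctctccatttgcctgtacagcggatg
A RUNX word began 160 bases before this start of Hapln1, and this was the only one of the 13 promoters with it, against 6.75% of the 32851 promoters in the table. A SOX word stood in 2 of the 13, 154 bases before this start of Sox5 and 63 bases before this start of Sox6, against 5.95% of all promoters. TCF/LEF words stood in 3 of the 13, each a promoter of Sox6, against 8.65% of all promoters. The aggrecan promoter was the richest of the 13 in G and C, at 74.0% of its bases. A word in these windows is a match of letters and not a measured binding site.

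The 3' untranslated regions were searched for the 7 letters that pair with bases 2 to 8 of the antisense strand of each siRNA, CAGCCAA for siZBP1-1 and TCCGGGA for siZBP1-2. Sox6 was the only one of the 10 genes with either word, and it had both, in at least 1 of its transcripts in GENCODE M21 on GRCm38. Both sites are shown with the word in capitals, because they are the places at which either siRNA could pair by its seed with a transcript of these genes.
siZBP1-1 word, chr7:115473775-115473781, minus strand: tgtctaccctCAGCCAAgacagcaggac
siZBP1-2 word, chr7:115474153-115474159, minus strand: gcaaaagctgTCCGGGAatgactgggta
Among 10868 genes tested for expression with an annotated 3' untranslated region, 13.2% held the first word and 2.74% the second.

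Zbp1 stood at 86.0 and 62.0 FPKM (fragments scaled to transcript length and to the number of mapped reads) in the siScr samples and at 11.5 and 11.6 FPKM in the siZBP1 samples, a fall by 2.56 on the log2 scale (limma adjusted p = 0.00322). Read numbers are not in the table, and from the spacing of its lowest values the siZBP1 samples had relative depths of 1.00 and 1.61 and the siScr samples 1.40 and 1.87, very roughly 10.1 to 18.9 M fragments. The 15 macrophage markers measured were the most abundant marker list, with a summed level of 8009 to 9115 FPKM in siScr and 12753 to 13504 FPKM in siZBP1, whereas 12 mesenchymal stromal markers summed to 872 to 933 FPKM in siScr and 719 to 733 FPKM in siZBP1. Of the macrophage markers, 10 of 15 rose and none fell, and of 11 tested mesenchymal markers 5 fell and 1 rose. Over all 11959 genes tested, 13.5% rose and 14.8% fell, the shares beside which each marker count here stands. Without either siZBP1 replicate, 0 macrophage markers passed and 1 mesenchymal marker fell, against 8 and 4 without siScr replicate 1 and 10 and 7 without siScr replicate 2. In bulk RNA, fewer cells of a type and less RNA per cell cannot be told apart. The 10 osteoblast markers summed to 5000 to 5483 FPKM in siScr and 5699 to 5845 FPKM in siZBP1, mostly Spp1 and Col1a1. These 2 went opposite ways. Spp1 rose from 1516 and 2625 FPKM to 4651 and 4447 FPKM, and Col1a1 fell from 3066 and 2520 FPKM to 1128 and 1191 FPKM. Of the 8 osteoblast markers tested, 7 fell and only Spp1 rose, so the higher sum reflects Spp1. The 8 adipocyte markers summed to 470 to 512 FPKM over the 4 samples, of which Plin1 and Lep were at 0, and 2 of 5 tested fell (Pparg and Cd36) and 1 rose (Lpl). Markers of erythroid, neutrophil, glial and endothelial cells were low, with summed levels of 0.211 to 1.12 FPKM for 7 erythroid genes, 0.581 to 4.64 FPKM for 7 neutrophil genes (S100a9, Mpo, Elane and Retnlg at 0), 3.29 to 7.29 FPKM for 7 glial genes and 9.44 to 9.92 FPKM for 6 endothelial genes. Of 6 reference and RNA quality genes, Malat1, a nuclear RNA, rose from 347 and 327 FPKM to 464 and 450 FPKM (log2 fold change 0.44, limma adjusted p = 0.00768), Gapdh rose (0.22, adjusted p = 0.0241) and Rpl13a fell (-0.26, adjusted p = 0.0335). The part that these cells and RNA quality play in the values below was not tested.

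The cartilage genes were low in these cells, with a mean under 1 FPKM over the 4 samples for 8 of the 10. The other 2, Matn2 and Sox9, reached the mean of 1 FPKM that was required for a test. Matn2 rose in the ZBP1-depleted mBMSCs, by 1.58-fold between the group means, and Sox9 did not pass the test. Aggrecan and matrilin-3 were listed at 0 in both siZBP1 samples, link protein and COMP were lower than in siScr, and matrilin-4 was higher, all at levels under 1 FPKM. The 1 gene called higher by limma stood against 13.5% of all 11959 genes tested, and the 0 genes called lower stood against 14.8% (limma, 2 genes tested, 0 lower also at an unadjusted p under 0.05).

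**Figure D1:**
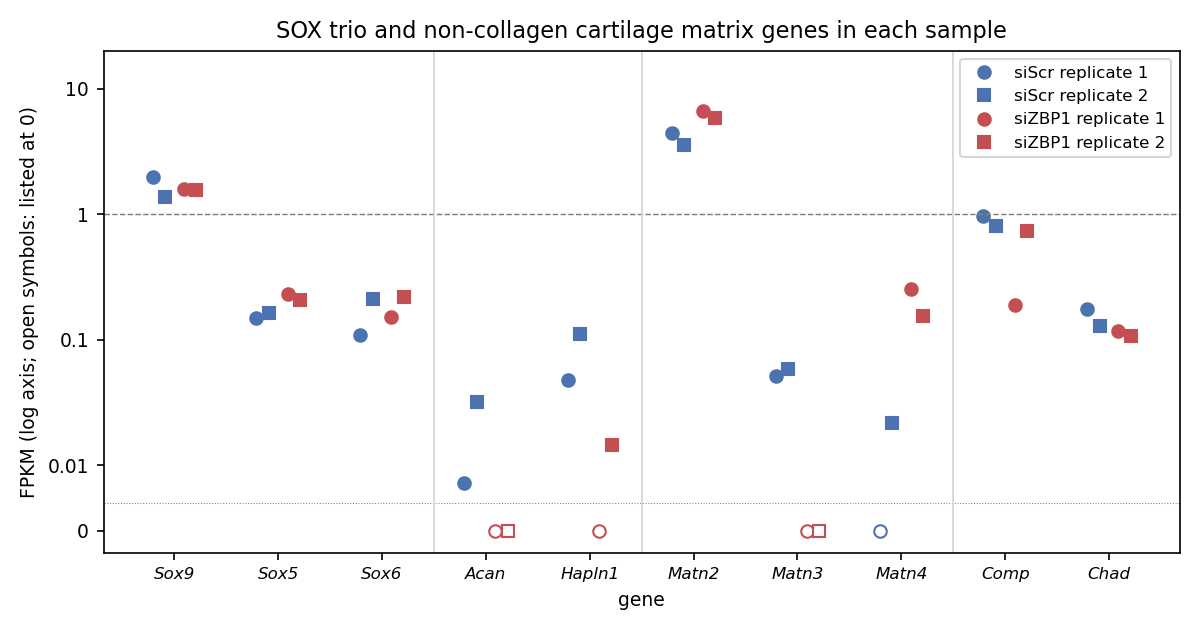
FPKM on a log axis of the 10 cartilage genes in the 4 samples, blue for siScr and red for siZBP1, circles for replicate 1 and squares for replicate 2; open symbols at the bottom are values listed at 0, and the dashed line marks 1 FPKM. Matn2 and Sox9 lie above the line in each sample, and the siZBP1 values of Acan and Matn3 are all at 0.

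Among the transcription factors, Sox9 (chr11:112782224-112787760), the master regulator of chondrocytes, stood at 1.98 and 1.37 FPKM in siScr and at 1.58 and 1.55 FPKM in siZBP1. Both siZBP1 values lay between the siScr values. The group means were 1.68 ± 0.429 and 1.56 ± 0.0180 FPKM (SD, n = 2 each), and the limma log2 fold change was -0.05 with a standard error of 0.15 (adjusted p = 0.834). Without siScr replicate 1 it was 0.11. Under quantile normalization it was 0.041, where the median of all genes also moved to 0.042, so that scaling adds nothing on the direction of Sox9.

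Sox5 (chr6:143828425-144781977) stood at 0.148 and 0.163 FPKM in siScr and at 0.232 and 0.209 FPKM in siZBP1, a ratio of means of 1.42 without overlap of the groups. Sox6 (chr7:115470872-116038796), the gene with both siRNA words, stood at 0.108 and 0.209 FPKM in siScr and at 0.152 and 0.217 FPKM in siZBP1. The groups overlapped for Sox6, and the ratio of means was 1.16. Per length of transcript, the mean level of Sox9 was 10.8 times that of Sox5 in siScr and 7.10 times in siZBP1. The annotation holds 7 coding transcripts for Sox5 and 10 for Sox6, and the FPKM of a gene with so many forms rests on the length that was assigned to it.

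Of the hyaluronan-bound aggregate, aggrecan (Acan, chr7:79053483-79115099) stood at 0.00717 and 0.0319 FPKM in siScr and was listed at 0 in both siZBP1 samples. Link protein (Hapln1, chr13:89539796-89611652), whose promoter held the RUNX word above, stood at 0.0478 and 0.111 FPKM in siScr and at 0 and 0.0144 FPKM in siZBP1. The group mean of Hapln1 in siZBP1 was 0.0908 times that in siScr, and the groups did not overlap. Because 1 fragment sets the smallest step of a value, the steps of the FPKM gave the fragments behind them, to within 0.1 of a whole number for 5 of the genes. Aggrecan rested on 1 and 6 fragments in siScr and on none in siZBP1, and link protein on 3 and 9 fragments in siScr and on 0 and 1 in siZBP1. Scaled to relative depth, the 1 fragment of link protein in siZBP1 against 12 in siScr gave a ratio of 0.104, with an exact 95% binomial interval of 0.00244 to 0.705 that covers counting error only and takes the estimated fragments and depths as known. The shallowest of the 4 libraries was siZBP1 replicate 1, in which both genes were at 0. In siZBP1 replicate 2, of a relative depth of 1.61, aggrecan had 0 fragments and link protein 1. In siScr replicate 1, of a relative depth of 1.40, they had 1 and 3. The part of depth in these values was not tested.

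**Figure D2:**
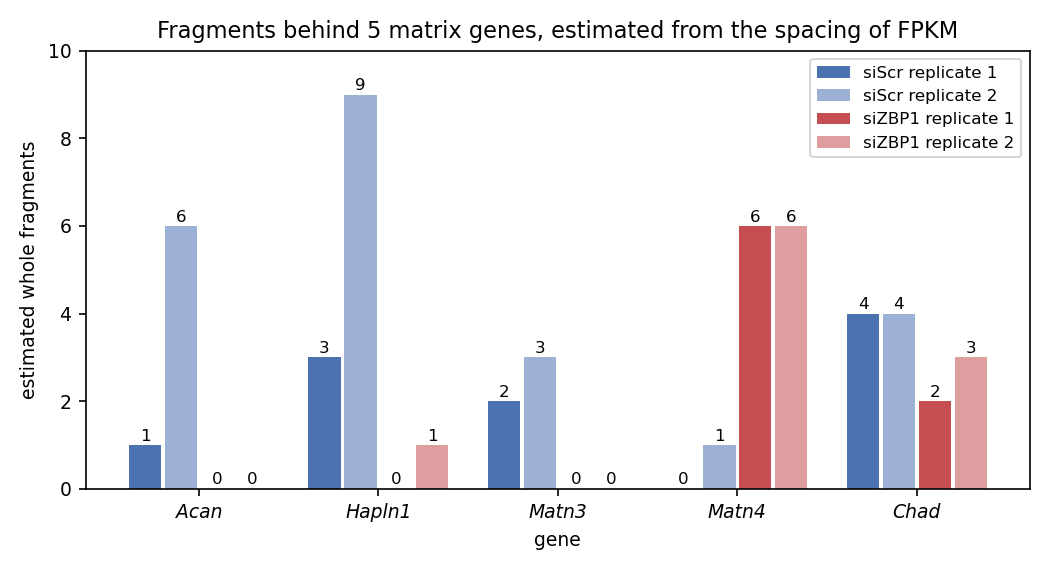
Whole fragments estimated from the spacing of FPKM values for the 5 matrix genes in which steps could be read, as bars for each sample (blue siScr, red siZBP1, the paler bar of each colour being replicate 2), with the number above each bar. No bar exceeds 9 fragments, and Matn4 is the only one of the 5 with more fragments in siZBP1 than in siScr.

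The matrilins, adaptor proteins that link fibrils and proteoglycans, differed among themselves. Matn2 (chr15:34306677-34436273), the matrilin with the broadest distribution outside cartilage, stood at 4.39 and 3.54 FPKM in siScr and at 6.66 and 5.84 FPKM in siZBP1. Both siZBP1 values lay above both siScr values, and the means were 3.96 ± 0.600 and 6.25 ± 0.582 FPKM (SD, n = 2 each). The limma log2 fold change was 0.55 with a standard error of 0.12 (adjusted p = 0.0356). The call was lost without a filter on low values (adjusted p = 0.0630), with a filter at a mean of 5 FPKM (adjusted p = 0.0541) and without any one of the 4 samples (adjusted p = 0.0537 to 0.190), with a log2 fold change of 0.43 to 0.67 in the latter fits. The genes whose values over the 4 samples ran closest to those of Matn2, by the Euclidean distance of centred log2(FPKM + 1) among 2828 genes, were Lmbr1l (distance 0.0181), Sesn3 (0.0458) and Bbs1 (0.0492).

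Matrilin-3 (Matn3, chr12:8947929-8972028), which is largely restricted to cartilage, stood at 0.0514 and 0.0584 FPKM in siScr and was listed at 0 in both siZBP1 samples. These values came from 2 and 3 fragments in siScr. Matrilin-4 (Matn4, chr2:164389393-164405160) stood at 0 and 0.0218 FPKM in siScr and at 0.253 and 0.154 FPKM in siZBP1, from 0 and 1 fragments against 6 and 6 fragments. The deepest library was a siScr sample, siScr replicate 2. Matn4 was higher in both siZBP1 samples, and the ratio of means was 18.7. Its 12 fragments in siZBP1 against 1 in siScr gave an exact 95% binomial interval of 2.22 to 642 for the depth-scaled ratio, of the same kind. In a fit without the filter and with 0.1 added to FPKM in place of 1, chosen after the values had been seen, Matn4 had a log2 fold change of 1.44 (limma adjusted p = 0.0369), and Matn2 and Matn4 were the 2 genes called higher, against 8.14% of 17788 genes. With 1 added, Matn4 did not pass (log2 fold change 0.25). The limma adjusted p was 0.0535 without a filter and 0.112 with a filter at a mean of 0.1 FPKM.

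The remaining matrix genes were COMP and chondroadherin. Comp (chr8:70373558-70382066), a thrombospondin of cartilage and tendon that binds collagen fibrils, stood at 0.957 and 0.798 FPKM in siScr and at 0.188 and 0.734 FPKM in siZBP1. The groups did not overlap and the mean was 1.90-fold lower in siZBP1, but the siZBP1 samples differed 3.90-fold from each other, more than the group means did. By the length of its longest coding transcript, the value in siZBP1 replicate 1 rested on very roughly 4.6 fragments. The same estimate was 29.0 in siZBP1 replicate 2 and 32.8 and 36.5 in siScr. Without siZBP1 replicate 1, the shallowest library, the remaining siZBP1 value of 0.734 FPKM stood close to the lower siScr value of 0.798 FPKM. Chad (chr11:94565047-94569127), a leucine-rich repeat protein that attaches chondrocytes to the matrix, stood at 0.174 and 0.127 FPKM in siScr and at 0.117 and 0.108 FPKM in siZBP1, from 4 and 4 against 2 and 3 fragments. The mean of Chad was 1.34-fold lower, and the depth-scaled ratio of its fragments was 0.782 with an exact 95% binomial interval of 0.201 to 2.71, so a difference was not detectable at this depth.

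Set side by side, 5 of the 8 genes without a test had both siZBP1 samples below both siScr samples (Acan, Hapln1, Matn3, Comp and Chad). The share was 20.4% among the 5829 genes with a mean above 0 and under 1 FPKM. For 2 of the 8, both siZBP1 samples lay above (Sox5 and Matn4), against 17.2%. The 5829 genes include some with a 0 in both groups, which cannot separate, so these unmatched shares do not show an excess. Acan and Matn3 were 2 genes listed at 0 in both siZBP1 samples, against 5.08% of the 17152 genes with a value above 0 in siScr. That share covers genes of every level and is not matched to genes this low, so the comparison does not show an excess. By the ratio of means, which can be formed for 8 of the 10 genes, 2 genes were over 1.5-fold lower (Hapln1 and Comp), against 13.8% of the 16281 genes with such a ratio, and 2 were over 1.5-fold higher (Matn2 and Matn4), against 10.7%. For any one of these genes, the smallest two-sided p that 2 samples against 2 allow in an exact permutation test is 0.33.

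Per length of transcript, the order of the levels in siScr was Matn2, Sox9, Comp, then Sox6, Sox5 and Chad, which overlapped as neighbours, then Hapln1 and Matn3, which overlapped, and last Acan and Matn4, which overlapped. In siZBP1 the order was Matn2, Sox9, then Comp, Sox5, Matn4 and Sox6, which overlapped as neighbours, then Chad and Hapln1, and last Acan and Matn3 at 0. Matn2 and Sox9 headed both orders, and no value of another gene reached 1 FPKM. By mean FPKM over the 4 samples, Matn2 ranked 8878 and Acan 17252 among the 24346 symbols.

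The wider chondrocyte programme was read from 34 further genes, of which 14 could be tested, and these held 7 genes that fell and 1 that rose, with a median log2 fold change of -0.32 against 0.00 over all genes tested. Over all genes tested 14.8% fell and 13.5% rose. The median of the list depended on the fit. It was -0.06 with a filter at a mean of 0.1 FPKM, -0.04 without a filter and -0.06 without siScr replicate 1. Without a filter and with 0.1 added it was -0.23. By the ratio of means, 7 of 23 genes of the list were over 1.5-fold lower and 5 over 1.5-fold higher. The shares over all genes with such a ratio were 13.8% and 10.7%. Col2a1, the fibrillar collagen of cartilage and the classical target of SOX9, stood at 5.41 and 2.50 FPKM in siScr and at 0.0749 and 0.0827 FPKM in siZBP1. Both siZBP1 values lay far below both siScr values, and the limma log2 fold change was -2.13 with a standard error of 0.31 (adjusted p = 0.0131). Pth1r, the receptor for parathyroid hormone and its related peptide in prehypertrophic chondrocytes and osteoblasts, fell from 48.4 and 35.1 FPKM to 10.3 and 11.1 FPKM (log2 fold change -1.86, limma adjusted p = 0.00485). Fmod, a small proteoglycan on collagen fibrils of cartilage and tendon, fell from 137 and 89.8 FPKM to 30.3 and 31.6 FPKM (log2 fold change -1.81, limma adjusted p = 0.00789). The gene of the list that rose was Zfp219, a zinc finger partner of SOX9, named here after its values were seen, with a log2 fold change of 0.34 (limma adjusted p = 0.0215). Defining cartilage genes were at 0 in all 4 samples, namely Col9a2, Lect1 (chondromodulin), Cytl1 and Epyc. Without either siZBP1 replicate none of the list passed the threshold, without siScr replicate 1 it was 4 lower, and without siScr replicate 2 it was 6 lower and 1 higher. Each such fit leaves a group with a single sample, which is assumed to vary like the other group.

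Among 17 relatives of the 10 genes, 6 could be tested, with 1 fall and 1 rise and a median log2 fold change of -0.22, shares close to the 14.8% and 13.5% of all genes tested. Without either siZBP1 replicate none passed, and without either siScr replicate 2 fell and 1 rose. Thbs3, a thrombospondin of the subgroup of COMP, fell from 3.64 and 2.56 FPKM to 1.01 and 0.967 FPKM (log2 fold change -1.03, limma adjusted p = 0.0162). Sox4, a SOX factor of progenitor cells outside the trio, rose from 17.3 and 15.2 FPKM to 25.8 and 25.5 FPKM (log2 fold change 0.63, limma adjusted p = 0.00857). Per length of transcript, the mean level of Sox4 was 9.69 times that of Sox9 in siScr and 16.4 times in siZBP1. Hapln4, a link protein known from the nervous system, stood at 2.06 and 2.37 FPKM in siScr and at 1.85 and 1.40 FPKM in siZBP1 and did not pass (log2 fold change -0.30, limma adjusted p = 0.189). It was the link protein with the highest level in these cells, whereas Hapln2 was at 0 in all 4 samples.

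Genes for hyaluronan and for the sulfated chains of aggrecan were expressed in these cells. The list of 26 holds synthases and sulfotransferases, and also the transporters Slc26a2 and Slc35d1 and the hyaluronan receptor Cd44. Of these, 23 could be tested, with 5 falls and 1 rise and a median log2 fold change of -0.10, against 14.8% of falls and 13.5% of rises over all genes tested. The genes that fell were Ugdh, Chst3, Chpf, Impad1 and the receptor Cd44, of which the last 3 are named after their values were seen. The number of falls was 3 with the replicate number as a block, 2 without siScr replicate 1 and 5 without siScr replicate 2, and without either siZBP1 replicate no gene of the list passed. Csgalnact1, which starts chondroitin sulfate chains, rose from 5.70 and 6.59 FPKM to 16.0 and 16.2 FPKM (log2 fold change 1.26, limma adjusted p = 0.00340). Ugdh, which makes the UDP-glucuronate used for hyaluronan and for chondroitin sulfate, fell from 48.3 and 46.7 FPKM to 31.6 and 33.9 FPKM (log2 fold change -0.52, limma adjusted p = 0.00666). Chst3, a chondroitin 6-sulfotransferase, fell from 2.27 and 2.28 FPKM to 1.33 and 1.36 FPKM (log2 fold change -0.48, limma adjusted p = 0.0352).

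Of 13 enzymes that cut aggrecan, hyaluronan or other cartilage matrix, 11 could be tested. Of these 11, 7 rose and none fell, against 13.5% and 14.8% of all genes tested, with a median log2 fold change of 0.59. By the ratio of means, 6 of the 13 were over 1.5-fold higher and 2 over 1.5-fold lower. Over all genes with such a ratio the shares were 10.7% and 13.8%. The 2 lower ones, Adamts9 and Adamts15, were too low for a test and are named after their values were seen. Adamts9 stood at 0.933 and 0.699 FPKM in siScr and at 0.509 and 0.412 FPKM in siZBP1. Mmp3, stromelysin-1, stood at 0.0828 and 1.000 FPKM in siScr and at 10.3 and 9.95 FPKM in siZBP1, with a log2 fold change of 2.92 (limma adjusted p = 0.00686). The siScr samples of Mmp3 differed widely, and both lay far below the siZBP1 samples. Adamts12, a protease that degrades COMP, rose from 4.87 and 5.74 FPKM to 13.0 and 13.9 FPKM (log2 fold change 1.20, limma adjusted p = 0.00442). Adamts4, an aggrecanase, rose from 10.9 and 16.3 FPKM to 28.7 and 28.1 FPKM (log2 fold change 1.03, limma adjusted p = 0.0203). Adamts5, also an aggrecanase and named after its values were seen, stood at 5.83 and 9.26 FPKM in siScr. In siZBP1 it stood at 4.95 and 5.79 FPKM and did not pass (log2 fold change -0.40, limma adjusted p = 0.236). Adamts1, named on the same terms, had a lower mean in siZBP1 and did not pass either (log2 fold change -0.35, limma adjusted p = 0.152). The number of enzymes that rose was 6 without siScr replicate 1, where 1 enzyme, Adamts1, was called lower, 5 without siScr replicate 2, 0 without siZBP1 replicate 1 and 1 without siZBP1 replicate 2. Macrophages also express several enzymes of this kind, and the 10 macrophage markers that rose did so in the same samples. The part of macrophages in these rises was not tested.

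**Figure D3:**
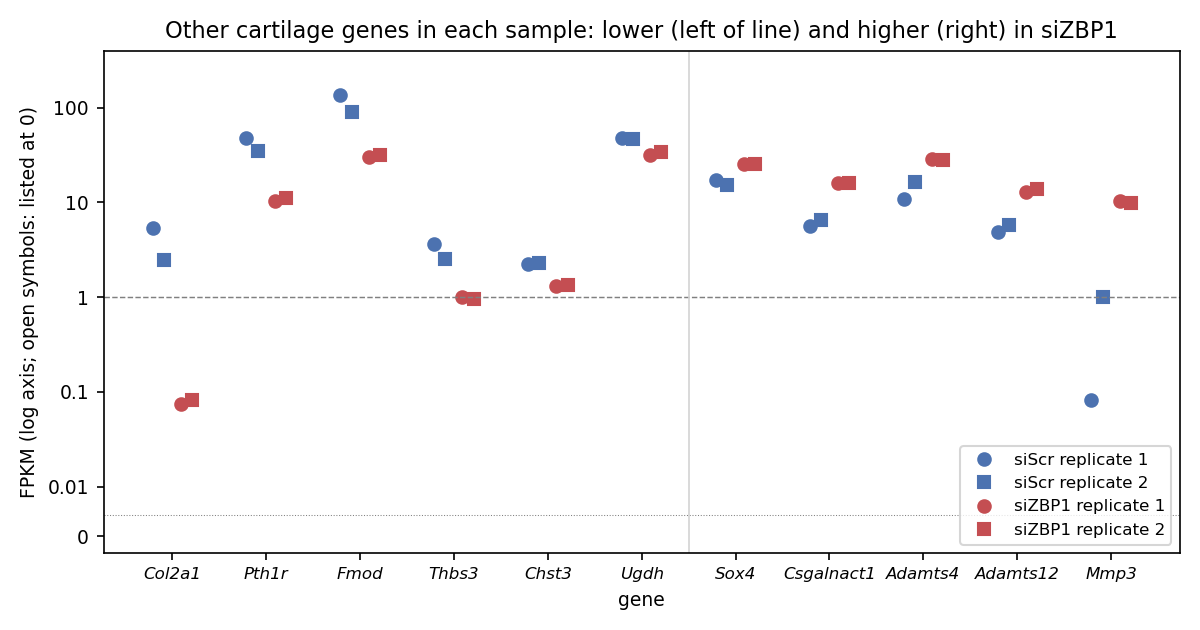
FPKM on a log axis of 11 genes of cartilage biosynthesis, signalling and breakdown in each sample, blue for siScr and red for siZBP1, circles for replicate 1 and squares for replicate 2; the vertical line parts the genes that fell from those that rose. Col2a1 lies above 1 FPKM in both siScr samples and under 0.1 FPKM in both siZBP1 samples, and Mmp3 takes the opposite course to about 10 FPKM.

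Tendon and ligament share Comp, Thbs4 and Fmod with cartilage, and 5 of their 9 markers could be tested. All 5 fell, Fmod included, against 14.8% of all genes tested, and the median of their log2 fold changes was -1.22. Dcn, decorin, fell from 19.3 and 13.8 FPKM to 4.89 and 3.84 FPKM (log2 fold change -1.70, limma adjusted p = 0.00774). Scx, the transcription factor of tendon progenitors, fell from 8.31 and 7.66 FPKM to 2.04 and 3.92 FPKM (log2 fold change -1.22, limma adjusted p = 0.0272). The number of falls was 4 without either siScr replicate, 0 without siZBP1 replicate 1 and 1 without siZBP1 replicate 2. The osteoblast markers, genes of the bone-forming path of the same cells, had 7 falls and 1 rise among 8 tested genes. Over all genes tested, 14.8% fell and 13.5% rose. The osteoblast markers had a median log2 fold change of -1.39. Without either siZBP1 replicate they had 1 fall and no rise.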

How the data were processed

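RNA-seq of 4 samples was used, 2 per group by the labels. The authors deposited FPKM per gene symbol and sample. Their methods name TruSeq libraries, Tophat, the mm10 genome and HTSeq, and the submitters' processing notes name TopHat and Cufflinks. The annotation and any filter are not given in the sources used here.

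Limma 3.58.1 (R 4.3.3, variance trend) was run on log2(FPKM + 1), over the 11959 genes whose FPKM averaged 1 or more, with Benjamini-Hochberg adjustment at 0.05, two-sided. It was also run on simulated data with changes larger than that of Matn2, so that run does not bear on the call of Matn2. A log2 fold change on this scale understates the change of low genes. Ratios of group means used the 1.5-fold limit of the study's methods. Relative depth and whole fragments were read from the spacing of values up to 0.3 FPKM, with the length checked against transcripts of GENCODE M21 for genes of at most 5 coding transcripts, a rule set after values had been seen. Intervals on such fragments are exact binomial (scipy 1.17.1) and cover counting error only. Promoters came from RefSeq. Other steps ran in Python 3.11.15 (pandas 2.3.3, numpy 2.4.6) and figures in matplotlib 3.10.9.

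The 10 genes and the other lists were chosen with earlier results of these data known. Beyond the 10 genes and Zbp1, up to 3 tested genes with the largest change per list, genes of a list at 0 and the 3 genes nearest to Matn2 are named. Collagen genes other than those of the lists and the other experiments were not analysed here.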

Additional observations from a re-analysis of the deposited data

How the results depend on the processing

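With 14 alternatives to the limma fit, the number of the 10 cartilage genes called higher was 0 without the filter and 0 with a filter at a mean of 5 FPKM, 2 without the filter and with 0.1 added, chosen after seeing the data, and 0 to 0 when 1 sample was left out, against 1 as reported. The number called lower was 0 in each. Those over 1.5-fold lower were 0 with 1 added to each mean, 0 among genes with a mean of at least 1 FPKM, 1 by geometric means, 1 at a 2-fold limit and 1 to 3 with 1 sample left out, against 2 as reported. Those over 1.5-fold higher were 0, 1, 1 and 1 in the same order and 1 to 2 with 1 sample left out, against 2. Adding 1 flattens values under 1 FPKM. By construction, a higher filter keeps fewer genes and a 2-fold limit passes fewer. No geometric mean was formed for a group with a value of 0, so Hapln1 and Matn4 left those counts. For the other settings the cause was not tested. For Sox9 the log2 fold change was 0.041 under quantile normalization and -0.22 to 0.11 with 1 sample left out. Quantile normalization moved the median of all genes to 0.042.

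Same-numbered samples did not deviate together (r = -0.06 over 11959 genes). This cannot show whether they were paired, because each group gives a single difference between its samples. With the replicate number as a block, 1 of the cartilage genes was called higher as before (Matn2, adjusted p = 0.0207), 8 of the other chondrocyte genes were lower in place of 7, 6 degrading enzymes higher in place of 7, 3 hyaluronan and sulfation genes lower in place of 5, 7 mesenchymal markers lower in place of 5, and 2 adipocyte markers higher in place of 1. Col2a1 fell in all 9 alternatives with 4 samples that tested it (log2 fold change -4.40 to -2.09), and passed in 1 of the 3 fits with 1 sample left out. Without siScr replicate 1 its mean was under 1 FPKM and it was not tested. Zbp1 itself passed in 2 of 4 such fits. Depth limits the 5 genes whose FPKM steps gave at most 9 fragments in any sample: a value of 0 there is not absence.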
